A study of Mus musculus with 95 samples.

Results

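Wild-type liver was compared with wild-type cortex in small RNA libraries, using all 16 wild-type liver libraries and the 9 wild-type cortical libraries whose label does not carry the number L8. These 25 libraries were chosen by genotype, tissue and L number from the 95 libraries of the series, and the 7 wild-type cortical libraries with L8 served only as a check. The mice were 6 months old, on a C57BL6/J background, and came from 2 zQ175 lines: neo-intact (CHDI-81003003), in which the knock-in carries a neomycin cassette, and neo-deleted (CHDI-81003019), in which that cassette is gone. All animals compared here were wild type. Liver (left lobe) held 8 libraries of each line and 8 of each sex. Cortex (left) held 4 neo-intact and 5 neo-deleted libraries, 3 from females and 6 from males. The 16 animals each gave a liver and a cortical library. The 9 cortical libraries compared came from 9 of them, so the tissues were partly paired. The 7 L8 libraries came from the other 7 animals, 5 females and 2 males. Each library is 1 animal, and fewer cells of a type and less RNA per cell cannot be told apart in such bulk tissue.

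A microRNA (miRNA) is cut from a hairpin precursor, and the mature strand pairs with target transcripts mainly through its seed, bases 2 to 8. In hepatocytes the transcript of mir-122 is the best known source of miRNA, and the mir-192 and mir-194 hairpins are shared with gut and kidney epithelium. Neurons are known for mir-124, mir-9, mir-128 and mir-138, and the imprinted Dlk1-Dio3 region holds a large cluster of hairpins that is active in brain.

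Rows of the count table carry identifiers of the form MI and 7 digits, read here as human miRBase hairpin entries. The files pair no names with them. The names used here are those of that numbering, could not be checked against a table, and stand for the entry to which mouse reads were assigned. Of 59 counted entries whose name has numbered copies, 57 held estimates that were not whole within 0.005 (96.6%), against 42 of 194 names without such copies (21.6%). Estimates for copies of 1 name were therefore also summed. A level is the share of a library's counts, in percent or in CPM (counts scaled to a common library total), and does not allow for hairpin length. Counts per hairpin do not tell the 5′ arm from the 3′ arm.

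Mature mouse sequences were taken from RefSeq (GRCm38.p6), where 49 of 60 named hairpins had an entry under the same symbol. They are shown for the hairpins that lead a tissue or differ most, with the seed in capitals and hairpins of 1 seed together. The first set belongs to hairpins that were higher in liver, with miR-10b, which was not called, beside miR-10a because they share a seed.
miR-192-5p: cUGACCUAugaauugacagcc
miR-215-5p: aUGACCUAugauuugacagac
miR-194-5p: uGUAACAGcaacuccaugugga
miR-10a-5p: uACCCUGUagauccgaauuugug
miR-10b-5p: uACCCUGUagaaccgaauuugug
miR-92a-3p: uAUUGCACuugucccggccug
miR-25-3p: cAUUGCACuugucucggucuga
miR-148a-3p: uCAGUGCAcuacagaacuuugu
miR-22-3p: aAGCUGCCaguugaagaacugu
miR-802-5p: uCAGUAACaaagauucauccuu
miR-21a-5p: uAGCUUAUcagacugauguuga

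The next set belongs to hairpins that led both tissues, with miR-30c, which did not, as a further member of the miR-30 seed.
miR-30a-5p: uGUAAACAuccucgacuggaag
miR-30e-5p: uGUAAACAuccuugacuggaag
miR-30c-5p: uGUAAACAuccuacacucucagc
miR-26a-5p: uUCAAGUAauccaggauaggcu

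The last set belongs to hairpins that were higher in cortex.
miR-127-3p: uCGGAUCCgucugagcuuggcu
miR-181a-5p: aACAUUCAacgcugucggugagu
miR-181b-5p: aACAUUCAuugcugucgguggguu
miR-181c-5p: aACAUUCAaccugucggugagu
miR-9-5p: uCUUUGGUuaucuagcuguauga
miR-128-3p: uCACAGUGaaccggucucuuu
miR-138-5p: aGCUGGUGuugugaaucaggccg
miR-222-3p: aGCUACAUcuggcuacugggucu
miR-221-3p: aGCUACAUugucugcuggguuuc
miR-708-5p: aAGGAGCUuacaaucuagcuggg
miR-204-5p: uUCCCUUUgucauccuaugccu

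Total counts ran from 74540 to 132842 in liver and from 110368 to 164218 in cortex. The L8 libraries were deeper, at 382813 to 495415. Of 1881 entries, 177 passed the filter on low counts. The L number was uneven between tissues: 8 of the 9 cortical libraries were L1 against 4 of 16 liver libraries, and the labels do not say what it stands for. No molecular identifiers are named in the labels, so floors cover counting error only.

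Liver and cortex differed in nearly every hairpin that could be tested. In edgeR's quasi-likelihood test with Benjamini-Hochberg adjustment over all 177, 64 hairpins were higher in liver (36.2%) and 104 were lower (58.8%), together 94.9%. These shares are the background for every count below, since a hairpin high in 1 tissue and absent from the other passes the filter through the tissue in which it is high. The median log2 difference over the 177, liver minus cortex, was -1.08. Of the 177, 39 had all liver libraries above all cortical ones (22%) and 89 had all liver libraries below (50.3%). With only the 4 liver and 8 cortical L1 libraries, 174 of 188 were called, and with the 7 L8 cortical libraries in place of the 9, 182 of 192. The size of a difference often depended on which cortical libraries were used: with the 7 L8 libraries, 32 of 61 named hairpins moved by over 1.5 times, and 30 of these kept their direction and call. Such values are given beside some of these results only, so a result without one may also have moved. For example, with the 7 L8 libraries the log2 difference went from 1.95 to 0.72 for mir-22 and from 1.56 to 0.87 for mir-25. It went from 2.67 to 1.96 for mir-142 and from 1.15 to 1.83 for mir-486-2.

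Counts were more concentrated in liver. The 10 leading hairpins of a library held between 69.8% and 73.9% of counts in liver (median 71.1%) and between 58.3% and 62.7% in cortex (median 60.9%). The groups did not overlap, and the means differed by 10.1 percentage points (exact permutation test, two-sided, p = 4.89e-07, the smallest this design allows). Thinned to 74537 counts each, liver libraries held 174 to 197 entries with a count (median 187.5) and cortical libraries 223 to 236 (median 232). Cortex was again above liver in every library, with a mean difference of -44.2 entries, liver minus cortex (exact permutation test, two-sided, p = 4.89e-07).

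In liver, mir-192 (MI0000234) led every library, with shares from 17.1% to 24.6% (median 19.9%), while the cortical libraries lay between 0.0470% and 0.102%. The next places in liver overlapped: mir-92a-1 (MI0000093) took 10.4% ± 1.25 (SD, n = 16), mir-30a (MI0000088) 10.4% ± 0.887 and mir-22 (MI0000078) 7.65% ± 1.07. mir-148a (MI0000253) followed with 5.19% ± 0.644. In cortex, mir-127 (MI0000472) led each of the 9 libraries at 17.2% to 20.2% (median 19.1%). Liver libraries lay between 0.0181% and 0.116% for mir-127. Below it, mir-181a-1 (MI0000289) took 110057 ± 9471 CPM (SD, n = 9) and stood apart from mir-30a at 5.88% ± 0.453 and mir-26a-1 (MI0000083) at 5.76% ± 0.502, whose ranges overlapped. With the 9 cortical libraries, only mir-30a, mir-30e, mir-30d and mir-26a-1 were among the 10 leading hairpins of both tissues. mir-22 ranked 12 in cortex, at 2.20% ± 0.256. In the 7 L8 libraries mir-22 stood at 61858.5 ± 5350 CPM (SD). That mean was above mir-30a there, at 54736, and within the liver range of mir-22, 51046 to 96841 CPM. The lead of mir-127 was not seen in the means of these L8 libraries. It stood at 120017 ± 8502 CPM (SD) there, against 121036 ± 7923 for mir-181a-1, so neither clearly led. Per length (FPKM) and with the 9 cortical libraries, mir-192 and mir-127 still led. By that measure mir-30a came before mir-92a-1 in liver, and mir-22 ranked 10 in cortex.

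**Figure D1:**
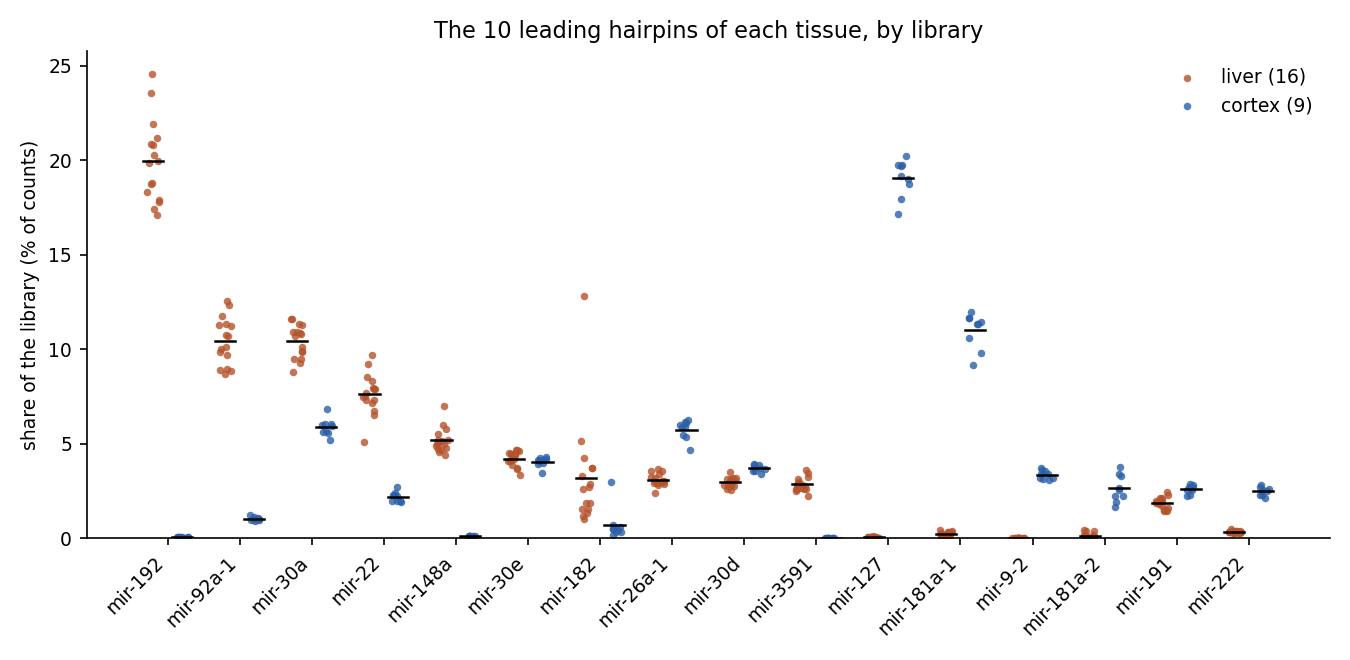
Share of the library (% of counts, linear axis) for the 16 hairpins among the 10 leading ones of liver or cortex. Points are libraries (16 liver, 9 cortex) and lines are means; mir-192 lies above 17% in every liver library and mir-127 above 17% in every cortical one.

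The hepatocyte list was led by mir-192, mir-148a, mir-3591 and mir-378a. Of 16 members, 15 had an identifier, 14 had a count and 9 passed the filter; those 9 were all higher in liver, beside 36.2% of all features tested, with a median log2 difference of 6.29. Its members together took 27.3% to 34.5% of liver counts and 0.272% to 0.405% of cortical counts. The log2 difference of mir-192 was 8.19 ± 0.16 (SE; adjusted p = 9.31e-25). Its mouse hairpin lies at chr19:6264844-6264932 (GRCm38, plus strand), 115 bases from Mir194-2 and inside no other annotated gene of that strand. A similar pair sits on chromosome 1, where Mir215 (chr1:185313581-185313692) is exonic and Mir194-1 intronic in the antisense transcript 2010103J01Rik, 195 bases apart.

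The copies of mir-194 summed to 0.363% to 0.669% of liver counts (median 0.44%) and 0.00353% to 0.00885% of cortical counts. Every liver library was above every cortical one, with a log2 difference of 6.65 ± 0.17 (SE, edgeR, copies summed, adjusted p = 2.41e-24). mir-215 (MI0000291), which shares its seed with mir-192, ranged from 213 to 448 CPM in liver (median 312) and held 1 count over the 9 cortical libraries. As shares of the library, not per length, the neighbours of 1 locus were unequal in liver: mir-192 took 199396 CPM and mir-194-2 (MI0000732), beside it, took 4048.

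mir-3591 (MI0017383) is the human entry on the strand opposite mir-122, the hepatocyte miRNA precursor. It ranged from 22665 to 36231 CPM in liver (median 28016) and from 0 to 51.5 CPM in cortex (median 6.09). No libraries overlapped, and the log2 difference of 11.33 ± 0.34 (SE, adjusted p = 3.74e-21) was the largest among called hairpins with at least 100 CPM in liver. It was 12.14 without the cortical library of neo-intact male 1 and 14.78 with the 7 L8 libraries. The entry of mir-122 itself (MI0000442) held 7 counts over 16 liver libraries, all in 1 library at 61.3 CPM. From which strand the reads at this locus came is not recorded in the counts.

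mir-10a (MI0000266), from the Hoxb locus, ranged from 12157 to 24616 CPM in liver (median 19411) and from 47.8 to 221 CPM in cortex (median 104). The groups were far apart, and the log2 difference was 7.58 ± 0.22 (SE, adjusted p = 2.07e-21). mir-10b (MI0000267), which differs in sequence outside the seed and lies in introns of Hoxd3 and Hoxd4, ranged from 60.4 to 814 CPM in liver and from 18.1 to 324 in cortex. Its groups overlapped and it missed the threshold, and the log2 difference was 0.86 ± 0.42 (SE, adjusted p = 0.0516). Some other settings called it higher in liver, among them DESeq2 (0.92, adjusted p = 0.0229).

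Among other liver hairpins, mir-802 (MI0003906), known in liver and pancreas, ranged from 144 to 1231 CPM in liver and from 0 to 16.1 in cortex. mir-148a ranged from 44034 to 70149 CPM in liver and from 965 to 1491 in cortex, a log2 difference of 5.60 ± 0.11 (SE, adjusted p = 9.31e-25). mir-378a (MI0000786), encoded in an intron of Ppargc1b, ranged from 13490 to 21370 CPM in liver and from 1148 to 1758 in cortex, a log2 difference of 3.69 ± 0.09 (SE, adjusted p = 3.70e-23). In none of these did a liver library fall into the cortical range. An entry left unnamed, MI0014136, ranged from 100 to 298 CPM in liver and held 3 counts over the cortical libraries. mir-1247 (MI0006382) ranged from 52.7 to 692 CPM in liver and from 0 to 17.6 in cortex.

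The tested hairpins of the miR-17-92 cluster and its paralogues were higher in liver, and most of their summed share was 1 hairpin. mir-92a-1 ranged from 86832 to 125543 CPM in liver (median 104244) and from 9053 to 12442 in cortex (median 10312), a log2 difference of 3.49 ± 0.08 (SE, adjusted p = 2.24e-23). With the 7 L8 cortical libraries, in which it stood at 4913 CPM, the difference was 4.82. Its mouse hairpin (chr14:115044427-115044506) is exonic in Mir17hg, with those of mir-17, mir-18a, mir-19a, mir-20a and mir-19b-1. In liver mir-17 (MI0000071) stood at 317 ± 65.3 CPM (SD, n = 16) and mir-19a at 22.1 CPM. All 7 tested of the 15 members were higher in liver, beside 36.2% of all features, with a median log2 difference of 2.27 beside -1.08. Among them, mir-25 (MI0000082) shares the seed of mir-92a and lies within Mcm7. It ranged from 554 to 885 CPM in liver and from 173 to 347 in cortex.

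**Figure D2:**
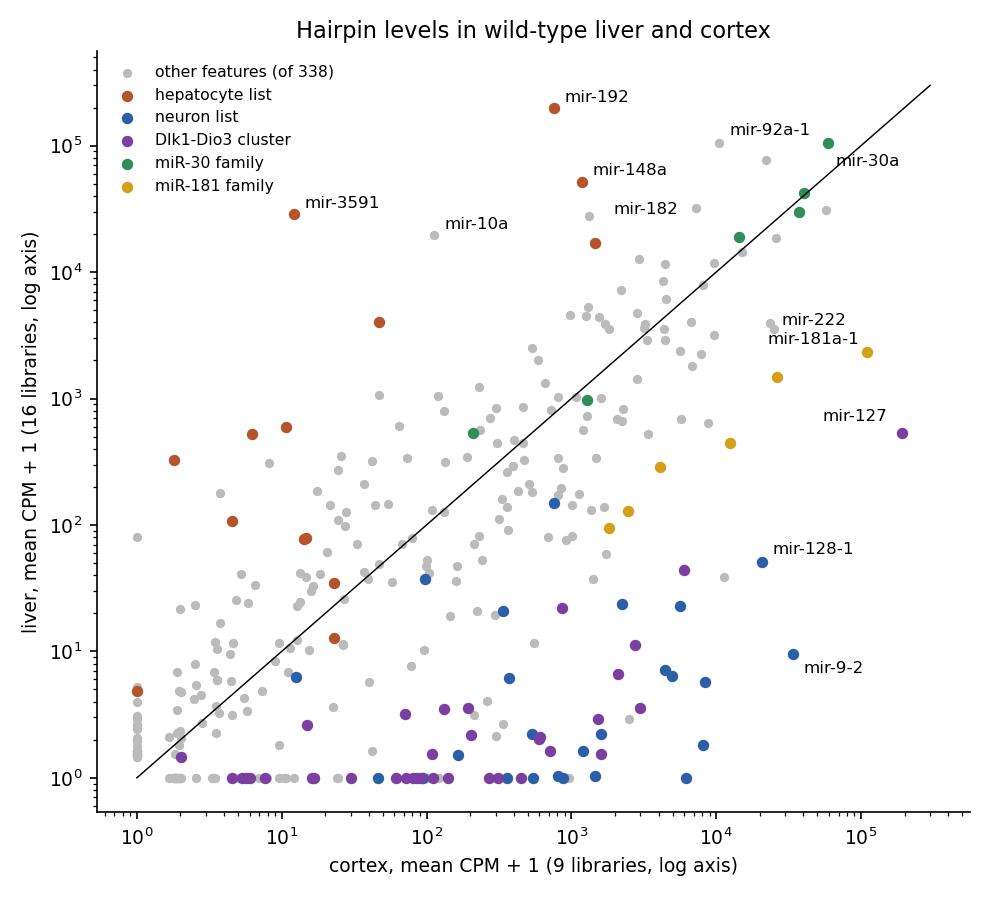
Mean level of the counted hairpins in cortex (x) and liver (y), both as CPM + 1 on log axes; the line marks equal levels. Tested members of the hepatocyte list lie above the line, those of the neuron list, the Dlk1-Dio3 cluster and the miR-181 family below it, and the miR-30 family near it.

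The neuron list was nearly absent from liver. Of 29 members, 28 had an identifier, 25 had a count and 19 passed the filter. Those 19 were lower in liver, beside 58.8% of all features. No liver library held a count for 11 of the 28, and 3 of these 11 had none in cortex either. Over all entries, 62 had counts in cortex and none in liver, and 27 had counts in liver and none in cortex. Summed, the list took 9.87% to 10.9% of cortical counts (median 10.4%) and 0.0174% to 0.0442% of liver counts (median 0.036%). The median log2 difference was -9.10, or -8.76 with the 5 hairpins without a liver count set at their bound.

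miR-9, a regulator of neural progenitors and neurons, was led by mir-9-2 (MI0000467), whose mouse hairpin (chr13:83738814-83738885) is exonic in the lincRNA C130071C03Rik. Its 3 copies summed to 3.74% to 4.37% of cortical counts (median 4.16%) and to at most 0.00433% in a liver library. No library of 1 tissue came near the other, and the log2 difference of the sum was -11.66 ± 0.23 (SE, edgeR, copies summed, adjusted p = 4.09e-27). The division between copies was unsteady: mir-9-1 held 0.076% to 11.5% of the sum in cortical libraries. mir-9-3 (MI0000468) had no rounded count in liver and was at least 3335-fold lower there, against a floor of 3 counts over the 16 libraries (1.85 CPM). This bound depends on that division.

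miR-128, produced from introns of R3hdm1 (mir-128-1) and Arpp21 (mir-128-2), is abundant in forebrain neurons. Its copies summed to 2.41% to 3.75% of cortical counts (median 2.72%) and to 0.00118% to 0.0118% of liver counts, a log2 difference of -8.72 ± 0.17 (SE, edgeR, copies summed, adjusted p = 2.51e-27). mir-128-2 (MI0000727) held 2 counts in all liver libraries against 9330 in cortex. miR-138, known for its action on dendritic spines, summed to 1.18% to 1.39% of cortical counts (median 1.31%) and at most 0.00348% of liver counts. Its log2 difference was -9.66 ± 0.18 (SE, edgeR, copies summed, adjusted p = 9.12e-28).

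miR-124, the classical neuronal miRNA, took less of the cortical library than miR-9 or miR-128. Its copies summed to 0.532% to 0.662% (median 0.571%) in cortex and to at most 0.00596% in liver, a log2 difference of -9.45 ± 0.22 (SE, edgeR, copies summed, adjusted p = 3.09e-25). The neighbours mir-132 (MI0000449) and mir-212 (MI0000288), known as targets of CREB, were both lower in liver. mir-132 ranged from 4399 to 6080 CPM in cortex and from 0 to 67.8 in liver. mir-212 ranged from 1837 to 2545 CPM in cortex and from 9.94 to 40.3 in liver. mir-137 and mir-139 kept low but measurable levels in liver, with means of 19.8 and 148 CPM against 336 and 759 in cortex.

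Several less abundant hairpins had no or almost no liver count. mir-708 (MI0005543) ranged from 848 to 1077 CPM in cortex, and mir-383 (MI0000791) from 712 to 1134. Neither had a count in liver, so they were at least 519-fold and 474-fold lower there. mir-124-3 (MI0000445), at no rounded count in liver (estimates up to 0.48 CPM), was at least 434-fold lower. That bound depends on how reads were divided between copies, since mir-124-1 held at least 99.2% of the liver sum. mir-668 (MI0003761) and mir-218-1 (MI0000294) held 1 count each in liver against 1846 and 1856 in cortex. mir-204 (MI0000284), from an intron of Trpm3 and known from choroid plexus and retinal pigment epithelium, held 3 counts in liver and ranged from 1985 to 2908 CPM in cortex.

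The Dlk1-Dio3 cluster took 19.5% to 22.5% of cortical counts (median 21.5%) and 0.0268% to 0.129% of liver counts. Of 52 members listed, 39 had an identifier. Of these, 21 had no count in liver, and 3 of the 21 had none in cortex either. In either tissue, 36 had a count and 17 passed the filter. Those 17 were lower in liver, beside 58.8% of all features. Their median log2 difference was -7.90, or -7.84 with the 3 at their bound. Most of the sum was mir-127, antisense to the imprinted gene Rtl1, whose mouse hairpin lies at chr12:109592846-109592915. It ranged from 171540 to 202454 CPM in cortex (median 191441) and from 181 to 1160 CPM in liver (median 461). The log2 difference was -8.35 ± 0.24 (SE, adjusted p = 1.41e-21). mir-1247, in Dio3os on the same chromosome, is not on this list. That hairpin was higher in liver, by 5.01 ± 0.32 (log2, SE, adjusted p = 8.09e-14).

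The other members of the cluster took far smaller shares. mir-136 (MI0000475), whose hairpin lies 2411 bases from that of mir-127, ranged from 2220 to 3223 CPM in cortex and from 0 to 43.3 in liver. mir-411 (MI0003675) ranged from 4261 to 7040 CPM in cortex and from 0 to 70.5 in liver. mir-410 (MI0002465) ranged from 2574 to 3782 CPM in cortex and held 5 counts in all liver libraries. The groups overlapped in none of these. In the L8 cortical libraries mir-127 stood at 120017 ± 8502 CPM (SD, n = 7) against 190449 ± 9866 in the 9, a gap between cortical libraries that was not tested, and its log2 difference to liver was then -7.47.

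The miR-181 family, whose members share 1 seed, took 14.5% to 17.3% of cortical counts (median 15.8%) and 0.343% to 0.627% of liver counts (median 0.474%). All 6 members were tested and lower in liver, beside 58.8% of all features, with a median log2 difference of -4.19. mir-181a, summed over copies, took 12.5% to 15.1% of cortical counts and 0.272% to 0.474% of liver counts, a log2 difference of -4.89 ± 0.08 (SE, edgeR, copies summed, adjusted p = 1.79e-28). Its division between mir-181a-1 and mir-181a-2 could not be read in liver, where mir-181a-1 held from 1.55% to 99.7% of the sum. mir-181c (MI0000271), whose estimates were whole, ranged from 3582 to 5201 CPM in cortex and from 177 to 571 in liver.

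The neighbours mir-221 (MI0000298) and mir-222 (MI0000299) share a seed, lie 504 bases apart on chromosome X and are known in endothelium and proliferating cells. mir-222 ranged from 21502 to 28340 CPM in cortex (median 24902) and from 2680 to 4831 in liver (median 3434), a log2 difference of -2.67 ± 0.08 (SE, adjusted p = 3.56e-21). mir-221 ranged from 6863 to 8822 CPM in cortex and from 1817 to 2567 in liver, a log2 difference of -1.64 ± 0.08 (SE, adjusted p = 9.98e-17). Neither overlapped between tissues. With the 7 L8 cortical libraries, at means of 10308 and 4283 CPM, the log2 differences were smaller, at -1.15 for mir-222 and -0.53 for mir-221.

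**Figure D3:**
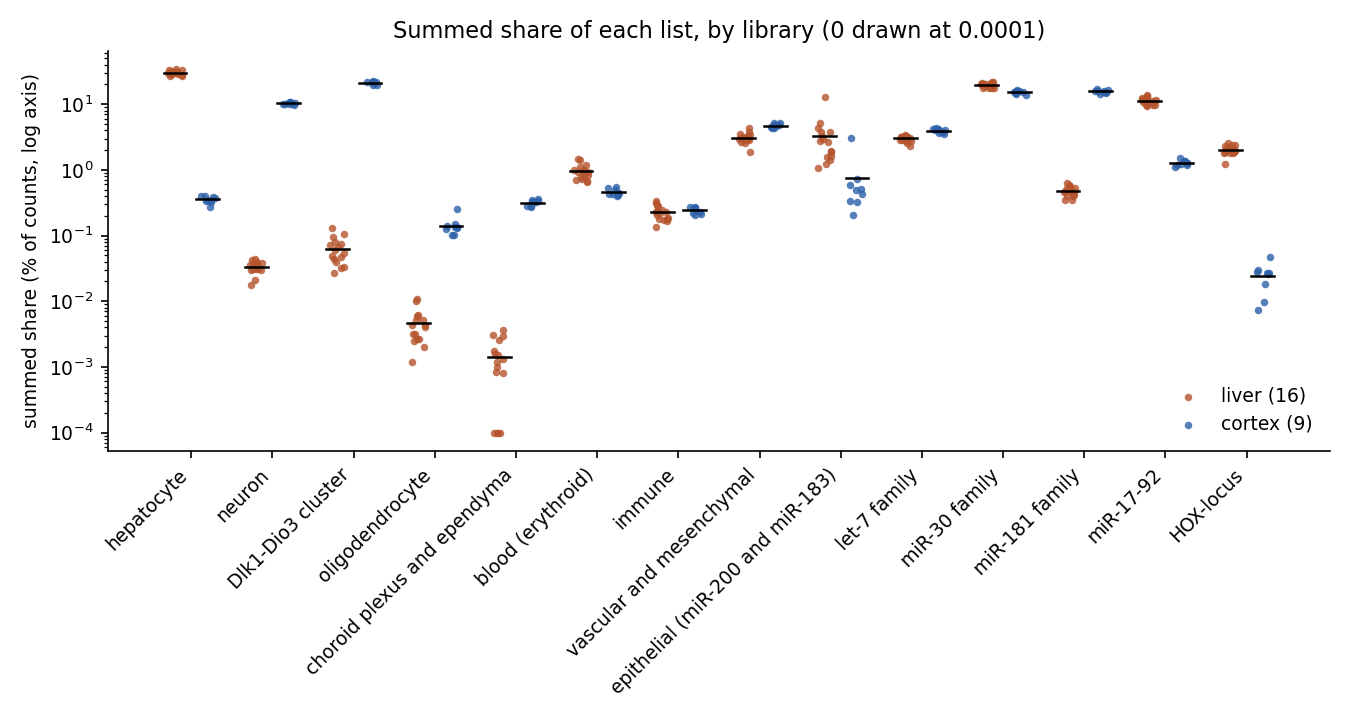
Summed share of each list in every library (% of counts, log axis), with 0 drawn at 0.0001; points are libraries (16 liver, 9 cortex) and lines are means. Neuron, Dlk1-Dio3 and miR-181 shares are higher in every cortical library, and hepatocyte, miR-17-92 and HOX-locus shares in every liver library.

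The miR-30 family was abundant in both tissues, at 17.5% to 21.7% of liver counts and 13.96% to 16.4% of cortical counts. Of its 6 tested members, 4 were higher and 2 lower in liver, beside 36.2% and 58.8% of all features. With DESeq2 size factors, with L1 libraries only and with the replicate block, 4 were higher and 0 lower, and with the 7 L8 libraries 5 were higher and 1 lower. mir-30a ranged from 88075 to 116191 CPM in liver and from 51864 to 68231 in cortex, a log2 difference of 1.01 ± 0.06 (SE, adjusted p = 3.18e-14), without overlap. mir-30e (MI0000749), intronic in Nfyc, ranged from 33535 to 46809 CPM in liver and from 34750 to 43251 in cortex. The tissues overlapped and the log2 difference was 0.22 ± 0.06 (adjusted p = 0.00169). mir-30e missed the threshold with total counts only (adjusted p = 0.322), without a filter (0.131) and in females (0.0784). With the 7 L8 libraries its difference was 1.12.

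mir-30d (MI0000255) was called lower in liver, by -0.16 ± 0.06 (log2, SE, adjusted p = 0.0112), but higher with the 7 L8 cortical libraries (0.46, adjusted p = 8.61e-06). mir-191 (MI0000465) behaved the same way, at -0.27 ± 0.09 (adjusted p = 0.00398) and 0.39 with L8 (adjusted p = 0.00329). Their direction depended on the cortical libraries used, and with DESeq2 size factors neither was called (adjusted p = 0.636 for mir-30d and 0.159 for mir-191). mir-26a-1 was lower in liver, at 24045 to 36667 CPM against 46816 to 62405. Its copies summed differed by -0.15 ± 0.06 (log2, SE, edgeR, copies summed, adjusted p = 0.0188). That fit was scaled anew, and its log2 differences lay a median of 0.16 above those of the main fit. As shares, the summed copies had means of 43695 CPM in liver and 60483 in cortex. mir-26a-1 held 65.1% to 77.1% of that sum in liver and 93.4% to 96.2% in cortex.

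The let-7 family took 2.34% to 3.41% of liver counts and 3.53% to 4.30% of cortical counts. Of its 12 tested members 2 were higher, 8 lower and 2 not called, beside 36.2% higher and 58.8% lower over all features. The median log2 difference of the family was -0.56, beside -1.08 for all features. let-7i (MI0000434) ranged from 1902 to 2704 CPM in liver and from 5021 to 6524 in cortex, a log2 difference of -1.09 ± 0.07 (SE, adjusted p = 4.67e-14). let-7b (MI0000063) went the other way, at 0.59 ± 0.08 (SE, adjusted p = 4.97e-08; 1.29 with the 7 L8 libraries), and let-7c (MI0000064) was lower by -0.58 ± 0.07 (adjusted p = 1.32e-08). The copies of let-7a summed gave -0.04 ± 0.07 (log2, SE, edgeR, copies summed, adjusted p = 0.61), with the shift of 0.16 given above for that fit. Their summed means were 4646 CPM in liver and 5801 in cortex.

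Markers of other cell types differed too. For erythroid cells, mir-486-2 (MI0023622) ranged from 5525 to 12975 CPM in liver and from 3581 to 5355 in cortex. Both tested members, mir-486-2 and mir-486-1, were higher in liver, beside 36.2% of all features. They are copies of 1 name that share reads, so they are not 2 separate markers. Summed, the list took 0.649% to 1.45% of liver counts and 0.399% to 0.541% of cortical counts. Nearly all of this was mir-486, whose copies summed to 0.644% to 1.43% in liver and 0.396% to 0.536% in cortex. Immune markers moved both ways, with 3 of 5 tested higher in liver, beside 36.2% of all features. The myeloid mir-223 (MI0000300) ranged from 216 to 591 CPM in liver and from 0 to 48.3 in cortex. mir-142 (MI0000458) ranged from 316 to 1496 CPM in liver and from 70.6 to 237 in cortex, whereas mir-150 (MI0000479), known from mature lymphocytes, ranged from 20.2 to 134 in liver and from 566 to 864 in cortex. mir-144 ranged from 47.4 to 258 CPM in liver and from 0 to 52.9 in cortex and did not pass the filter, and mir-451a had no count in either tissue. mir-155 held 2 counts in liver and none in cortex. The part of blood in the differences was not tested.

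Vascular and mesenchymal markers were likewise mixed, with 5 of 7 tested higher in liver and 2 lower, beside 36.2% and 58.8% of all features. The 2 lower ones were mir-221 and mir-222, given above. Summed, the list took less of liver, at 1.86% to 4.39% (median 3.01%), than of cortex, at 4.39% to 5.21% (median 4.61%). In the 7 L8 cortical libraries its mean was 3.40%. mir-126 (MI0000471), an endothelial hairpin, ranged from 5706 to 18285 CPM in liver and from 3547 to 6053 in cortex, a log2 difference of 1.54 ± 0.16 (SE, adjusted p = 1.26e-09). mir-143 (MI0000459), known from smooth muscle, overlapped, at 6406 to 18864 CPM in liver and 5346 to 16460 in cortex. mir-199a-1 (MI0000242), known from stellate and other mesenchymal cells, ranged from 719 to 1497 CPM in liver and from 17.5 to 88.6 in cortex. Of glial and choroid plexus markers, mir-338 (MI0000814), an oligodendrocyte hairpin, ranged from 1022 to 2484 CPM in cortex and from 11.8 to 88.98 in liver. mir-34c (MI0000743) ranged from 427 to 601 CPM in cortex and from 0 to 36.7 in liver.

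The miR-183 and miR-200 hairpins of epithelia varied widely within a tissue. mir-182 (MI0000272), which shares a locus with mir-183 on mouse chromosome 6, ranged from 10096 to 128150 CPM in liver (median 26520) and from 2043 to 29890 in cortex (median 4898). The groups overlapped through 1 cortical library, that of neo-intact female 3, whose 29890 CPM compare with 2043 to 7094 in the other 8. The same library stood highest of the 9 for mir-183 (318 CPM against at most 36.8), mir-200a (147 against at most 14.7), mir-200b (88.2 against at most 16.9), mir-141 (91.5 against at most 16.9), mir-429 (124 against at most 15) and, outside the list, mir-187 (503 against at most 169). mir-200c was at 8.82 CPM there against at most 7.36, and mir-96, of the same cluster as mir-183, was at 0 against at most 7.51. All 3 tested members were called higher in liver, beside 36.2% of all features. Within females alone mir-182 was not called (log2 difference 0.75, adjusted p = 0.305), nor was mir-183 (adjusted p = 0.965). In neo-intact mice alone neither was called (1.57, adjusted p = 0.131 for mir-182 and 0.72, adjusted p = 0.509 for mir-183). Over all mice the log2 differences were 2.37 for mir-182, 1.71 for mir-183 and 3.50 for mir-200b, and without the library of neo-intact female 3 they were 3.14, 3.21 and 4.45. With the 7 L8 libraries that of mir-182 was 4.59. In liver its median was 31496 CPM in the 4 L1 libraries, 30879 in the 8 L2 libraries and 14664 in the 4 L3 libraries, and the part of the L number in the result was not tested.

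**Figure D4:**
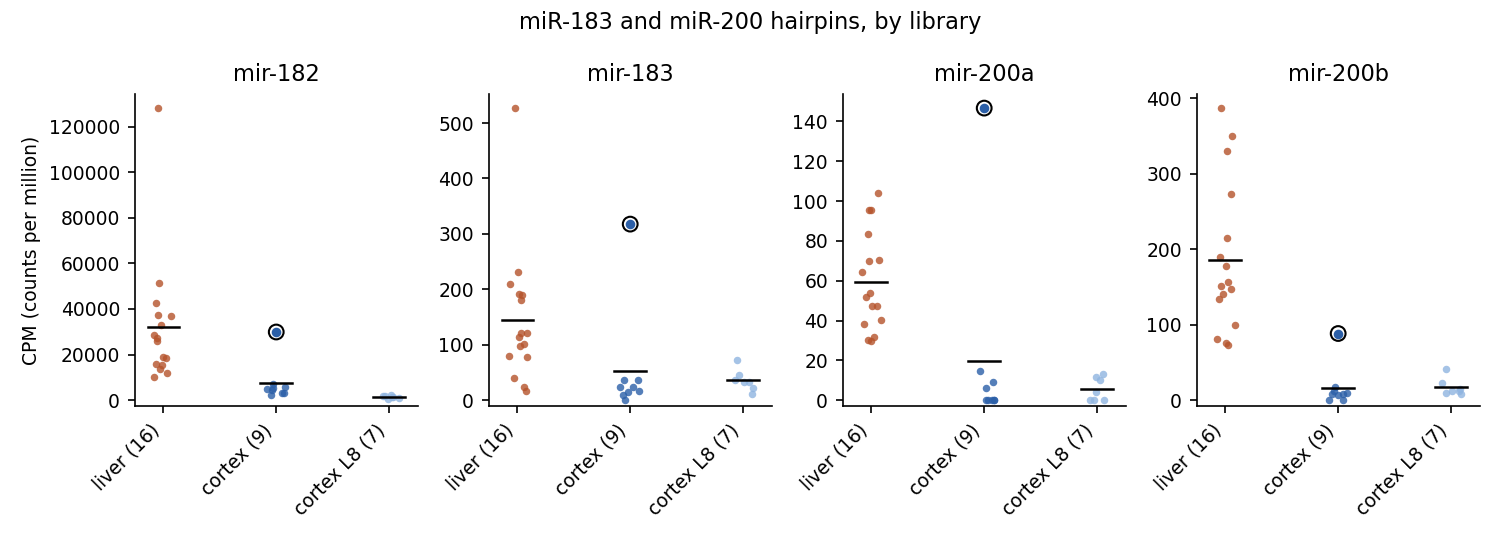
Levels of 4 hairpins of the miR-183 and miR-200 groups in CPM (linear axes) for liver (16), the 9 cortical libraries and the 7 L8 cortical libraries; lines are means. The circled point is the cortical library of neo-intact female 3, at 29890 CPM for mir-182 where the other 8 reach at most 7094.

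The difference between liver and cortex itself differed between the sexes for 4 of 177 hairpins (2.26%; edgeR's quasi-likelihood test of the tissue by sex term, adjusted over 177). mir-21 (MI0000077) lies within Vmp1 and is known to rise in injured and growing tissue. In liver it ranged from 13645 to 22971 CPM in 8 females and from 32238 to 52980 in 8 males. The sexes did not overlap, and this held in the L1, L2 and L3 libraries taken singly. In cortex it ranged from 1182 to 1329 CPM in 3 females and from 1221 to 1431 in 6 males. Liver minus cortex was larger in males by 1.11 ± 0.20 (log2, SE, adjusted p = 0.00219). The call held with the replicate block (1.33, adjusted p = 0.0153) and with the L8 cortical libraries (adjusted p = 0.0125).

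mir-149 (MI0000478), intronic in Gpc1, ranged from 12.2 to 64.9 CPM in female and from 50.8 to 166 in male liver, with cortical means of 1078 and 966 CPM. Its term, males minus females, was 1.84 ± 0.36 (log2, SE, adjusted p = 0.00278). mir-381, of the Dlk1-Dio3 cluster, had no count in female liver and 10 counts in male liver, so its term of 3.81 rests on very few counts (adjusted p = 0.0123). The term of mir-182 was 2.84 ± 0.77 (adjusted p = 0.0482) and fell to 1.33 without the cortical library of neo-intact female 3 (adjusted p = 0.604). With the replicate block, mir-149, mir-381 and mir-182 were not called (adjusted p = 0.318, 0.424 and 0.719).

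mir-1247 and mir-802, chosen after their values were seen, also lay apart by sex in liver, but both were too low in cortex for the term to be estimated closely. mir-1247 (chr12:110278048-110278129, exonic in Dio3os) ranged from 415 to 692 CPM in female and from 52.7 to 165 in male liver, without overlap. Its term was -0.67 ± 1.62 (log2, SE, adjusted p = 0.938). mir-802 ranged from 424 to 1231 CPM in female and from 144 to 610 in male liver, with overlap. Its term was -1.03 ± 1.65 (adjusted p = 0.892).

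**Figure D5:**
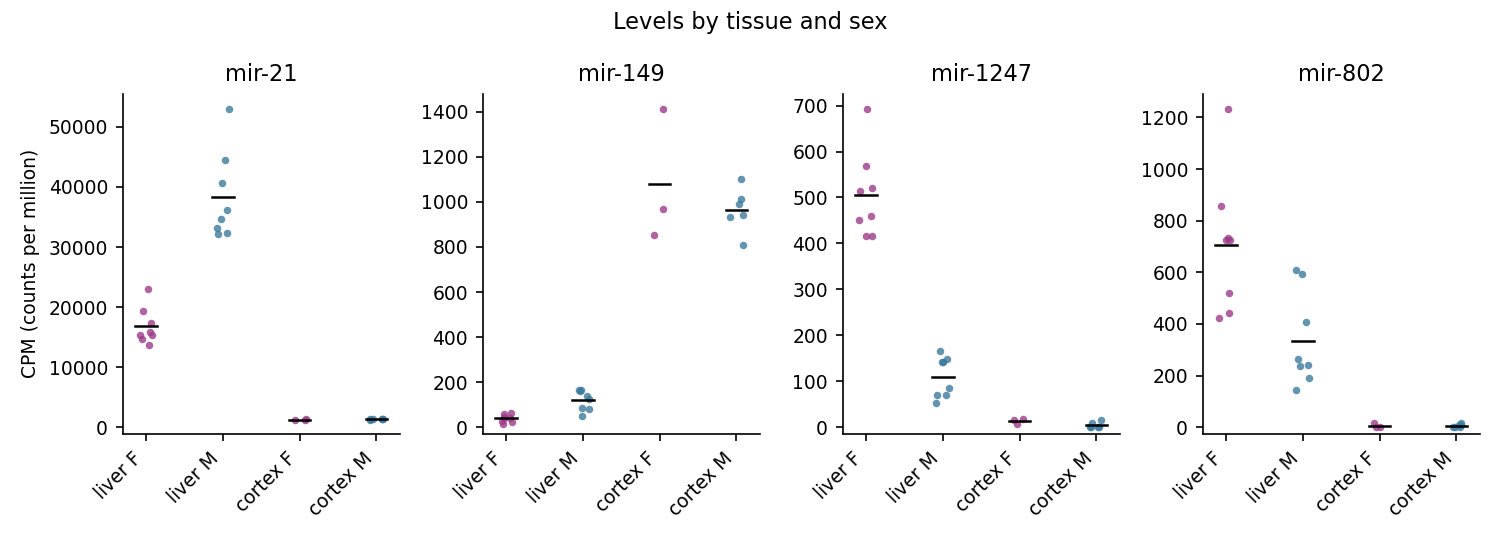
Levels of mir-21, mir-149, mir-1247 and mir-802 in CPM (linear axes) by tissue and sex; points are libraries (8 and 8 in liver, 3 and 6 in cortex) and lines are means. Male liver lies above female liver for mir-21 (at least 32238 against at most 22971 CPM) and below it for mir-1247.

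Between the lines, the tissue difference was not shown to differ for any hairpin: 0 of 177 passed in edgeR's quasi-likelihood test of the tissue by line term (0%), with 14 at an unadjusted p under 0.05, and 0 in DESeq2. The smallest adjusted p of a leading hairpin was 0.269, for mir-3591 (2.57 ± 0.72, log2, SE, neo-deleted minus neo-intact).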

How the data were processed

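Small RNA was sequenced in all libraries. The tools named are CASAVA 1.8.2, with mm10 as build, per the submitters' processing notes; the aligner and counter are not given in the sources used here. The authors deposited estimated counts per hairpin entry, which need not be whole, and FPKM values, a unit scaled by length and library total; FPKM served only for an order per length. Counts were rounded and fitted in R 4.3.3 with edgeR 4.0.16 (TMM scaling; filterByExpr by tissue, minimum count 10 and minimum total 15; quasi-likelihood test; sex and line as covariates; adjusted p under 0.05), with DESeq2 1.42.0 and limma 3.58.1 as alternatives and Python for permutation tests. Log2 differences are TMM-scaled, levels are not. Scripts were tested on simulated counts.

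The members and lists were chosen with earlier results of these data known. Named hairpins were the 10 leading ones of each tissue, the 10 with the largest difference in each direction of at least 100 CPM in the higher tissue, and the 4 most abundant tested members of each list; others, such as further list members and cluster neighbours (mir-132, mir-212, mir-137, mir-139, mir-223, mir-199a-1, mir-17, mir-125a), were chosen after their values were seen. Copies of 1 name share reads, so single copies are uncertain. Counting is not stated to use strand. The animal identifier in the labels pairs tissues. Deviations of same-animal libraries from the tissue means, over 98 hairpins, correlated at a median r of 0.11 (from -0.21 to 0.60, 9 animals). Positions and annotation are those of mouse hairpins of the same name in GRCm38.p6 and GENCODE vM21. A hairpin called exonic lies in an exon of at least 1 annotated transcript of the gene and can be intronic in other transcripts.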

Additional observations from a re-analysis of the deposited data

Results flagged for a closer look

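The term for sex in the tissue difference passed the test for 4 hairpins. Males minus females was 1.11 (log2) for mir-21, 1.84 for mir-149, 2.84 for mir-182 and 3.81 for mir-381. Only 3 of the 9 cortical libraries came from females, and 1 of these is the library that stood apart for mir-182.

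Among the 9 cortical libraries, 1 library lay far from the other 8 for 12 of 61 named hairpins. The cutoff flags about 1 in 20 groups of normally distributed values. CPM with skew and zeros need not follow that distribution, so the 12 cannot be set against this rate. The library of neo-intact female 3 was highest for mir-182 (29890 CPM), mir-183 (317.6 CPM) and mir-200b (88.22 CPM). That of neo-intact male 1 was highest for 2 liver hairpins, mir-3591 (51.49 CPM against at most 18.1) and mir-215 (7.356 CPM, which is 1 count, against 0). It was also highest for mir-181c (5201 CPM). That of neo-deleted male 1 was highest for mir-338 (2484 CPM) and mir-128-2 (10495 CPM) and lowest for mir-30e (34750 CPM). That of neo-deleted male 4 was lowest for let-7f-2 (477.3 CPM) and mir-411 (4261 CPM). In that library let-7f-1 stood at 7477 CPM, and in the other 8 let-7f-2 was the higher of the pair. Neo-deleted male 2 was highest for mir-383 (1134 CPM).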

How the results depend on the processing

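The count of hairpins called stayed within 1.5 times of 168 under every setting run except the restriction to whole estimates, which leaves fewer hairpins to test (97): 92 called, 32 higher and 60 lower in liver. With the animal as a replicate block (9 animals) 157 were called, and 156 of the 162 calls it could test kept their direction. Leaving out each library gave 164 to 168 calls, 63 to 67 higher and 99 to 104 lower. DESeq2 size factors moved the median difference by 0.13 and total counts by -0.16 (log2). The sex term called 2 hairpins with the replicate block, 1 with the 7 L8 libraries (chosen after seeing the data), and 3 to 6 with each library left out; the line term called 0 to 1. The paired sign-flip tests of both library-level results gave p = 0.00391 (exact, 9 animals), and neither changed its call.

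Some directions reversed. mir-30d was 0.28 with all 16 cortical libraries, 0.46 with the 7 L8, 0.038 with the replicate block and 0.067 in males, and ran from -0.18 to 0.022 with libraries left out. mir-191 was 0.17 with all 16, 0.39 with the 7 L8 and 0.072 in males. mir-183 was -0.040 in females. let-7f-2 was -0.079 with total counts, -0.030 without a filter, -0.013 at 10 CPM in 9 libraries, -0.17 with the 7 L8, -0.011 in neo-intact mice and between -0.074 and 0.27 with libraries left out. The causes were not tested. Copies summed (chosen after seeing the data) left 147 of 157 called and moved the log2 differences by a median of 0.16. Depth limits hairpins with few counts in either tissue, which were not tested.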

Other observations

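let-7a-1 was called higher in liver (log2 0.40) while let-7a-2 and let-7a-3 were called lower (-1.68 and -1.46). mir-19b-2 had a mean of 79.8 CPM in liver and no rounded count in cortex, but it shares reads with mir-19b-1. It held from 0% to 100% of their sum in liver libraries. Summed, mir-19b had means of 205 CPM in liver and 26.6 in cortex, a log2 difference of 3.18 ± 0.23 (SE, edgeR, adjusted p = 1.12e-13). mir-101, summed over copies, was higher in liver by 1.42 ± 0.12 (log2, SE, edgeR, adjusted p = 6.37e-12). mir-125a (MI0000469) ranged from 2187 to 8145 CPM in liver and from 21383 to 24760 in cortex, and mir-125b, summed over copies, was lower in liver by -3.39 ± 0.11 (log2, SE, edgeR, adjusted p = 6.95e-22). Entries without a name here held 1.74% of liver counts and 0.510% of cortical counts.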
